A study of Mus musculus with 12 samples.

Results

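The genes of retinoic acid uptake, synthesis, breakdown and response in the embryonic mouse lung are described here across 4 groups of lungs. They are the 9 genes Stra6, Dhrs3, Aldh1a1, Aldh1a2, Crabp1, Crabp2, Rarb, Cyp26a1 and Cyp26b1, taken by symbol from the array's annotation. They were carried by 11 of the 62976 features of the array and made up 9 of the 20738 genes that could be named and tested. Rarb had 3 features and each of the other 8 genes had 1.

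The lungs were of strain C57bl/6J and each group held 3 arrays. GOF 9 h (gain of function) lungs came from Rosa26rtTAtet(O)fgf10 mice given doxycycline for 9 h, which is meant to switch on extra Fgf10. LOF 9 h and LOF 6 h (loss of function) lungs came from Rosa26rtTAtet(O)solubleR2b mice given doxycycline for 9 h or 6 h, which switches on a secreted, soluble FGFR2b that binds the ligands of the FGFR2b receptor and keeps them from it. In both lines the doxycycline-dependent activator rtTA is driven from the ubiquitous Rosa26 locus, so that the transgene is not limited to 1 cell type. Control lungs are labelled wild-type and untreated, whereas the study's methods describe littermates that carry rtTA without the soluble receptor, from mothers given doxycycline and collected at both times. For its arrays the paper took only 1 control at 9 h and the rest at 6 h. The labels give no time for a control array, so LOF 9 h and GOF 9 h lungs have no separate 9 h control group. Lungs were taken at mid-gestation, and RNA came from whole single lungs, so that fewer cells of a type and less RNA per cell cannot be told apart. The same 3 control arrays stand in all 3 comparisons with control, and the 3 LOF 9 h arrays in 3 comparisons.

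Retinoic acid is made from vitamin A (retinol) in 2 oxidation steps, by way of retinaldehyde, and acts by binding nuclear receptors (RAR, paired with RXR) on the DNA of target genes. Cells shape the signal by taking up retinol, by turning retinaldehyde back into retinol, by making the acid with ALDH1A enzymes and by destroying it with CYP26 enzymes. In the mouse foregut, retinoic acid is known to be needed for the lung buds to form, through Fgf10 in the mesoderm, and its signal is low in the distal buds that branch later.

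The start sites of Rarb and Cyp26a1 are shown because both are textbook target genes whose promoters carry a retinoic acid response element next to the start. RefSeq promoters (GRCm38.p6, 250 bases before to 50 bases after an annotated start) were given for 8 of the 9 genes, 14 promoters in all. A gene can have several such starts. Both strands were searched for a pair of direct repeats with a spacer of 5 bases (DR5). Each half-site was spelled AGGTCA, the consensus form, or in its close forms AGTTCA, then the form GGGTCA and finally the form GGTTCA. Capitals mark the DR5. The Rarb window is chr14:16575427-16575726 on the minus strand and the Cyp26a1 window is chr19:37697558-37697857 on the plus strand.
Rarb: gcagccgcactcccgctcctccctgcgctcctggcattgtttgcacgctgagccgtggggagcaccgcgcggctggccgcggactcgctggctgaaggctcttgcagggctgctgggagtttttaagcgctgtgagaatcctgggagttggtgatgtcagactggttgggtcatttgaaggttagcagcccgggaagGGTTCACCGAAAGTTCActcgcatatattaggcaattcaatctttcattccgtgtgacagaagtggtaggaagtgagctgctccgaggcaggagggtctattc
Cyp26a1: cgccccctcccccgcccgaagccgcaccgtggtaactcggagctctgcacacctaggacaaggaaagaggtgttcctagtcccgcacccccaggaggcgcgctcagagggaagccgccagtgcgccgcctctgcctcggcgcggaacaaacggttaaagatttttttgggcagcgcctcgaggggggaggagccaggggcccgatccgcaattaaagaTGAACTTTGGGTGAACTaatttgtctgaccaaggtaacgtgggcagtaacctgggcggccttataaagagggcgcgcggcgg
In Rarb the repeat read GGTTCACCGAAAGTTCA and began 53 bases before the start. In Cyp26a1 it lay on the opposite strand, where it read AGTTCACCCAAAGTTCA, and its first printed base was 32 bases before the start. Both starts are those of the windows. The Cyp26a1 repeat, at 37697776 to 37697792, lies inside the gene span given below, which begins at 37697738. The Rarb window also lies inside the span of its gene. The windows of Rarb and Cyp26a1 were the 2 of 14 with a DR5, against 32 of all 32851 promoters (0.0974%). Both genes were known beforehand to carry a response element, so the count is no test of enrichment. A repeat with a spacer of 2 bases (DR2), spelled with the same half-sites, was found in 0 of the 14 windows and in 88 of all promoters (0.268%), and a single half-site in 4 of the 14 and in 43.7% of all. A match is a description of letters in the window and not a bound site.

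Values are log2 intensities as deposited, with a median of 2.98 over each array and quartiles of 2.20 and 6.01. Features differ in how well they bind, so levels are compared between groups and never between genes. All 12 arrays correlated within their group at an average r of 0.974 to 0.980. Over single pairs of arrays, those of different groups included, r was 0.966 to 0.981, so this measure hardly tells the groups apart. Differences are given as log2 with the SE of a limma fit over all genes and groups, and an adjusted p is Benjamini-Hochberg adjusted over the 20738 genes, with calls at 0.05. With 3 arrays a group the number of arrays limits the precision, and the median SE of a difference over all genes was 0.27. Etv5, an ETS factor that FGF signalling switches on, lay at 10.21 to 10.40 in LOF 9 h lungs and at 10.65 to 10.99 in LOF 6 h lungs, against 12.54 to 12.87 in control lungs, and fell by 2.36 and 1.87 (adjusted p = 6.39e-04 and 0.0031). Sftpc, the surfactant protein C gene of distal epithelium, fell by 2.86 in LOF 9 h lungs (adjusted p = 0.0090), and these were the called genes among 7 chosen to check the FGF block. Of the 7, 6 were below control in LOF 6 h and 6 in LOF 9 h lungs, but Dusp6 hardly moved in LOF 6 h lungs (10.14, against 10.17). The paper names Etv5 and Sftpc in its FGF10 signature, drawn from arrays of the soluble receptor at the same times, so their fall is no independent check. The Fgf10 feature read 8.12, 8.12 and 7.34 in the lungs labelled GOF 9 h, against 7.43, 7.94 and 7.91 in control lungs, so the label is not borne out by this feature. Whether the feature can see the transgene's RNA is not given in the sources used here, and every direction given for GOF 9 h rests on the label.

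Markers of lung epithelium, mesenchyme and mesothelium were present in every group, although the mesothelial gene Msln lay at 1.58 to 3.24 on the 12 arrays, around the array median. Lists of other cell types were not level between groups. They are compared by the mean of log2 values unless stated. Summed linear intensity set some other lists apart and left some of these overlapping. The mean of 10 heart genes stood at 0.58 to 1.40 above the control mean in LOF 6 h lungs, against -0.41 to 0.45 in control lungs, and at -0.76 to -0.39 in GOF 9 h lungs. The 5 measured erythroid genes stood at 0.46 to 0.76 in LOF 6 h lungs, against -0.36 to 0.56 in control lungs, the 6 foregut genes at 0.18 to 0.86, against -0.33 to 0.38, and the 6 macrophage genes at 0.19 to 0.44, against -0.17 to 0.11. In the same unit the 9 mesothelial genes stood at -0.14 to 0.19 in LOF 6 h lungs, against -0.36 to 0.28 in control lungs. The foregut list was partly dim, as only 3 of its 6 genes lay above the array median on all 12 arrays. Of these 6 genes, 4 had a higher and 2 a lower mean in LOF 6 h than in control lungs.

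The retinoic acid genes were expressed at levels that 8 of the 9 features placed above the array median on all 12 arrays, and no gene was called in any of 5 comparisons. LOF 6 h lungs had the highest of the 4 group means for 8 of the 9 genes, while control lungs had the lowest mean for 6. Over all genes, LOF 6 h lungs were highest for 30.1% and control lungs lowest for 21.8%. Without Cyp26a1, which was dim, LOF 6 h lungs were highest for 7 of 8 and control lungs lowest for 6 of 8, where they were so for 32.1% and 20% of the 11572 genes above the array median on all arrays. The distance between the highest and the lowest group mean had a median of 0.43 over these 8 genes, against 0.33 over those 11572, and the pooled SD between arrays had a median of 0.26 for the 8 genes, against 0.21.

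**Figure D1:**
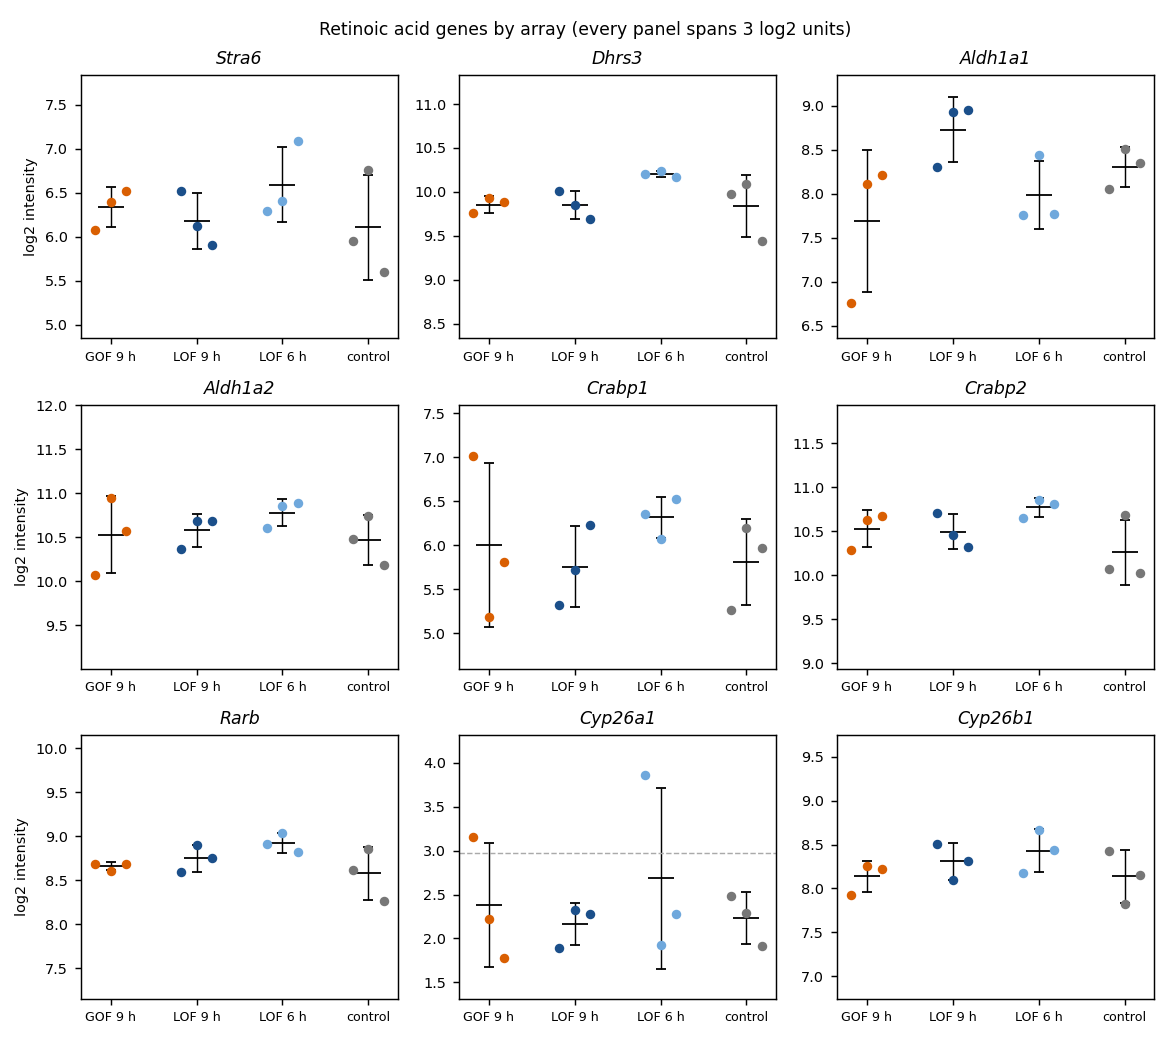
Log2 intensity of the 9 retinoic acid genes (brightest feature per gene) on each array. Points are arrays, in the order of their replicate numbers, bars are the mean and SD of 3 arrays, groups run from GOF 9 h through LOF 9 h and LOF 6 h to control, and the dashed line is the array median of 2.98. The 3 LOF 6 h arrays lie above all others for Dhrs3, Cyp26a1 lies above the array median on 2 of 12 arrays, and GOF 9 h array 1 is the low point of Aldh1a1 at 6.75.

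Uptake starts with STRA6, the membrane receptor that takes retinol from its carrier in blood. Stra6 (chromosome 9, 58063793 to 58154004, GRCm38.p6) read 6.08, 6.40 and 6.52 in GOF 9 h lungs, 6.52, 6.12 and 5.90 in LOF 9 h lungs and 6.29, 6.40 and 7.08 in LOF 6 h lungs, against 5.95, 6.76 and 5.60 in control lungs. The 4 groups overlapped, and the control arrays alone spanned most of the range, from the lowest value of all 12 arrays to the second highest. The LOF 6 h mean was 6.59 ± 0.43, against 6.10 ± 0.59 in control lungs (SD, n = 3 each), a difference of 0.49 ± 0.31 (SE) with a 95% interval of -0.21 to 1.19 (adjusted p = 0.683).

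DHRS3 turns retinaldehyde back into retinol and so lowers the supply for retinoic acid, and its gene is itself known to respond to retinoic acid. Dhrs3 (chromosome 4, 144892534 to 144928209) read 9.76, 9.93 and 9.88 in GOF 9 h lungs, 10.01, 9.85 and 9.69 in LOF 9 h lungs and 10.21, 10.23 and 10.17 in LOF 6 h lungs, against 9.98, 10.09 and 9.44 in control lungs. Every LOF 6 h array lay above all 9 others, and Dhrs3 was the one gene of the 9 whose highest group stood clear of the next. Set against control lungs, the LOF 6 h level was 0.37 ± 0.17 higher, with an interval of -0.02 to 0.75 (adjusted p = 0.563), and this did not pass. LOF 9 h lungs were 0.35 ± 0.17 below LOF 6 h lungs (adjusted p = 0.536).

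Synthesis of the acid is carried by ALDH1A2, the main retinaldehyde dehydrogenase of the embryo, and by ALDH1A1. Aldh1a2 (chromosome 9, 71215789 to 71296243) read 10.07, 10.95 and 10.58 in GOF 9 h lungs, 10.37, 10.69 and 10.69 in LOF 9 h lungs and 10.60, 10.85 and 10.89 in LOF 6 h lungs, against 10.49, 10.74 and 10.18 in control lungs. All groups overlapped, and both the lowest and the highest of the 12 arrays were GOF 9 h arrays. No difference from control was above 0.31, and that of GOF 9 h lungs was 0.06 ± 0.23, with an interval of -0.45 to 0.57.

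Aldh1a1 (chromosome 19, 20492583 to 20643463) had the widest range of the 8 genes above the array median and was the one gene that did not have its highest mean in LOF 6 h lungs. It read 6.75, 8.11 and 8.21 in GOF 9 h lungs, 8.30, 8.93 and 8.96 in LOF 9 h lungs and 7.76, 8.44 and 7.76 in LOF 6 h lungs, against 8.05, 8.51 and 8.35 in control lungs. Every GOF 9 h array was below every LOF 9 h array, and 1 of the 3 GOF 9 h arrays was far below the rest. The means were 7.69 ± 0.81 in GOF 9 h lungs and 8.73 ± 0.37 in LOF 9 h lungs (SD, n = 3 each), a difference of -1.04 ± 0.37 with an interval of -1.87 to -0.21 that did not pass over all genes (adjusted p = 0.306 in limma). Without GOF 9 h array 1 the Aldh1a1 difference was -0.57 (adjusted p = 0.565), and that from control was -0.15 in place of -0.61. On that same array the mean of 6 smooth muscle genes was 1.26 below the control mean, against 0.39 and 0.04 below on the other GOF 9 h arrays and -0.04 to 0.02 in control lungs, and its part in the Aldh1a1 value was not tested.

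CRABP1 and CRABP2 bind retinoic acid in the cytosol, and CRABP2 is known to hand it to nuclear receptors. Crabp2 (chromosome 3, 87948693 to 87953372) read 10.29, 10.63 and 10.67 in GOF 9 h lungs, 10.71, 10.46 and 10.32 in LOF 9 h lungs and 10.65, 10.86 and 10.81 in LOF 6 h lungs, against 10.08, 10.69 and 10.02 in control lungs. The lowest LOF 6 h array lay just under the highest control array, and the other control arrays were the lowest of all 12. The Crabp2 means were 10.77 ± 0.11 in LOF 6 h lungs and 10.26 ± 0.37 in control lungs (SD, n = 3 each), a difference of 0.51 ± 0.20. Its 95% interval of 0.07 to 0.95 left out 0, but the gene ranked 1230 of all genes by p and did not pass (adjusted p = 0.462 in limma).

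Crabp1 (chromosome 9, 54764748 to 54773110) read 7.02, 5.18 and 5.81 in GOF 9 h lungs, 5.32, 5.72 and 6.23 in LOF 9 h lungs and 6.36, 6.07 and 6.53 in LOF 6 h lungs, against 5.27, 6.20 and 5.97 in control lungs. The GOF 9 h arrays held both the highest and the lowest value of the 12, so that this group's mean of 6.00 had an SD of 0.93. The largest Crabp1 difference, LOF 9 h against LOF 6 h, was -0.56 ± 0.43 (adjusted p = 0.716). Without GOF 9 h array 1, the difference of GOF 9 h lungs from control was -0.31 in place of 0.19.

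RARB is the retinoic acid receptor whose own gene is induced by the acid. Its brightest feature (chromosome 14, 16430839 to 17082331) read 8.69, 8.60 and 8.69 in GOF 9 h lungs, 8.59, 8.90 and 8.75 in LOF 9 h lungs and 8.91, 9.04 and 8.82 in LOF 6 h lungs, against 8.61, 8.86 and 8.26 in control lungs. It was the steadiest of the 9 genes, with a range of 0.77 over the 12 arrays. LOF 6 h lungs were 0.35 ± 0.16 above control lungs, with an interval of -0.01 to 0.70 (adjusted p = 0.555), and GOF 9 h lungs differed from control by 0.08 ± 0.16 (interval -0.28 to 0.44).

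A second Rarb feature read 6.02, 6.61 and 6.07 in GOF 9 h lungs, 5.93, 6.35 and 6.13 in LOF 9 h lungs and 6.63, 6.63 and 6.78 in LOF 6 h lungs, against 6.25, 6.48 and 6.40 in control lungs. By this feature the 3 LOF 6 h arrays lay above all others, whereas by the brightest one they overlapped the other groups. By the second feature LOF 9 h lungs were the lowest group, 0.54 ± 0.18 below LOF 6 h lungs (adjusted p = 0.379 in limma, over the 31465 named features) and 0.24 below control lungs, where the brightest feature gave 0.17 above control. The third Rarb feature was under the array median on all 12 arrays and gives no level.

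Breakdown is the task of the CYP26 enzymes, of which CYP26A1 is induced by retinoic acid in many tissues and CYP26B1 is known for clearing the acid from the limb bud and the fetal testis. Cyp26b1 (chromosome 6, 84571414 to 84593908) read 7.93, 8.26 and 8.23 in GOF 9 h lungs, 8.51, 8.10 and 8.32 in LOF 9 h lungs and 8.18, 8.66 and 8.44 in LOF 6 h lungs, against 8.43, 7.83 and 8.15 in control lungs. All 4 groups overlapped. LOF 6 h lungs were 0.29 ± 0.20 above control lungs (interval -0.15 to 0.73), and GOF 9 h and control lungs had equal means of 8.14 (difference interval -0.44 to 0.44).

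Cyp26a1 (chromosome 19, 37697738 to 37701536) was dim. It read 3.15, 2.23 and 1.77 in GOF 9 h lungs, 1.89, 2.32 and 2.27 in LOF 9 h lungs and 3.86, 1.92 and 2.28 in LOF 6 h lungs, against 2.49, 2.29 and 1.92 in control lungs. Only LOF 6 h array 1 and GOF 9 h array 1 were above the array median, so the feature gives no usable order of the groups. Without LOF 6 h array 1 its difference of LOF 6 h lungs from control was -0.13 in place of 0.45, and neither passed.

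**Figure D2:**
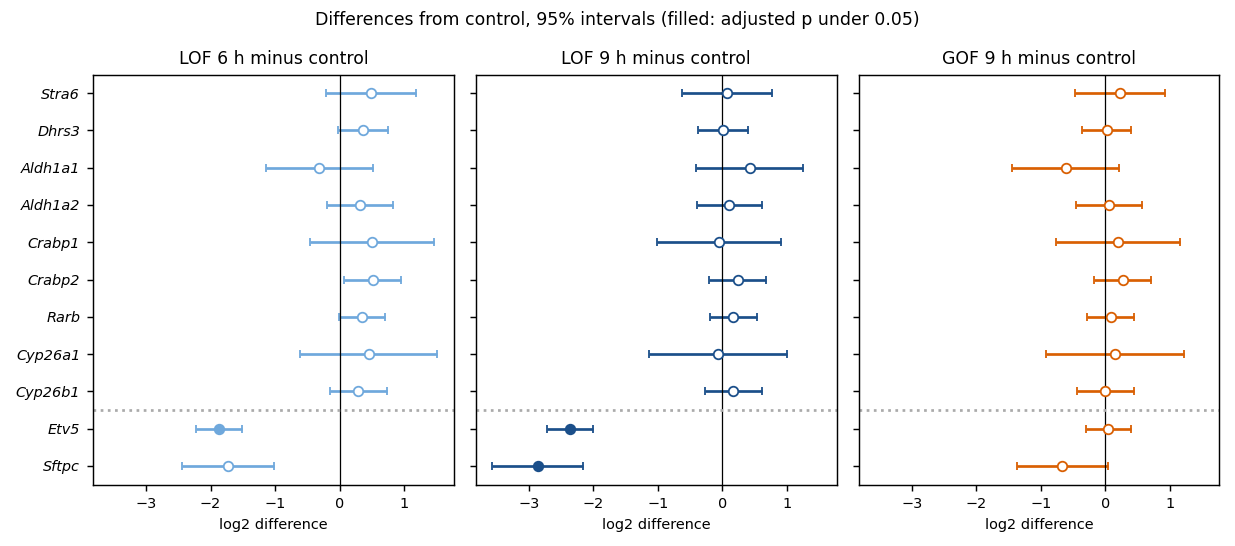
Log2 difference of LOF 6 h, LOF 9 h and GOF 9 h lungs from control lungs for the 9 retinoic acid genes and, under the dotted line, for Etv5 and Sftpc. Points are differences from the limma fit, bars are 95% intervals, and filled points passed an adjusted p of 0.05; the intervals of the retinoic acid genes cross 0 except that of Crabp2 in LOF 6 h lungs (0.07 to 0.95).

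The early comparison, LOF 6 h against control, asked what changes soonest after the FGFR2b ligands are blocked. Stra6, Crabp1, Crabp2, Dhrs3, Rarb, Aldh1a2, Cyp26a1 and Cyp26b1 had higher means in LOF 6 h lungs, by 0.29 to 0.51, and Aldh1a1 had a lower mean by 0.32. The median over the 9 genes was 0.37, against 0.02 over all genes. By limma 0 of the 9 passed after adjustment, where 0.0723% of all genes did, and 1 passed at an unadjusted p of 0.05, where 9.36% of all genes did. The groups stood apart for 1 gene of the 9, Dhrs3, where 16.4% of all genes did, and a difference above 0 was found for 8 of the 9, where 53.5% of all genes had one.

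Most of these differences leaned on the control arrays. Control array 3 was the lowest of the 3 controls for 6 of the 9 genes and control array 2 the highest for 7, while over all genes these arrays took those places in 31.8% and 36.8%. Control array 3 was also the lowest of all 12 arrays for 4 genes of the 8 above the array median (Crabp2, Dhrs3, Rarb and Stra6), as it was for 6.72% of all such genes. Without it the LOF 6 h differences were 0.39 for Crabp2, 0.24 for Stra6, 0.19 for Rarb, 0.17 for Dhrs3 and 0.17 for Aldh1a2, and without control array 2 they were 0.72, 0.82, 0.49, 0.49 and 0.45. Crabp1 and Cyp26b1 leaned on other control arrays: Crabp1 was at 0.24 without control array 1, in place of 0.51, and Cyp26b1 at 0.13 without control array 2, in place of 0.29. Aldh1a1, the lower gene, leaned on the LOF 6 h arrays, at -0.54 without LOF 6 h array 2 and -0.20 without LOF 6 h array 1 or 3, in place of -0.32. None of these passed. The median over the 9 genes was 0.24 without control array 3 and 0.49 without control array 2, and 8 of the 9 were above 0 in both. Of the marker lists, those of heart, neural, smooth muscle and macrophage genes stood higher on every LOF 6 h array than on every control array, while the erythroid list overlapped control array 2 and the foregut list control array 1. The lung mesenchyme list stood lower, at -0.28 to -0.06 in LOF 6 h lungs, against -0.06 to 0.09 in control lungs, and the groups nearly touched. By summed linear intensity this list overlapped, at 41283.7 to 43831.7, against 42123.1 to 44523. Its largest falls were in Wnt2 (means of 6.69, against 7.44) and Foxf1 (5.27, against 5.62). Foxf1 is a Hedgehog pathway gene that the paper itself reports as lowered by the block, so the list is not a plain measure of mesenchyme share. The 6 smooth muscle genes stood at 0.09 to 0.27 above the control mean in LOF 6 h lungs, against -0.04 to 0.02 in control lungs, and the 7 measured neural genes at 0.10 to 0.72, against -0.09 to 0.09. Their part in these differences was not tested.

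At 9 h of FGFR2b block 8 of the 9 retinoic acid genes had means closer to control than at 6 h, and Aldh1a1 had one farther from it (0.42 above, against 0.32 below at 6 h). The LOF 9 h means of 7 of the 9 were above control, where 50% of all genes were, with a median difference of 0.11 and a span from -0.07 for Cyp26a1 to 0.42 for Aldh1a1. Without control array 3, 5 of the 9 were above control and the median was 0.01, and without control array 2, 8 of the 9 were above control and the median was 0.25. By limma 0 of the 9 passed, where 0.0723% of all genes did, 0 passed at an unadjusted p of 0.05, where 7.92% of all genes did, and 0 stood apart, where 15.4% did. The intervals for Rarb (-0.19 to 0.53), Dhrs3 (-0.37 to 0.40) and Cyp26b1 (-0.27 to 0.61) leave out any change as large as that of Etv5, and so does the wider interval for Crabp1 (-1.02 to 0.91). That is a loose bound, as Etv5 was one of only 15 genes called in this comparison, and the intervals do not leave out smaller changes. By the mean of log2 values, the smooth muscle list alone stood apart from control, at 0.07 to 0.33 in LOF 9 h lungs, against -0.04 to 0.02 in control lungs. By summed linear intensity the lung epithelium list (12168.5 to 12347.5, against 9773.65 to 11063.8) and the macrophage list (1754.63 to 1817, against 1381.82 to 1688.76) also stood higher. The part of these lists was not tested.

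Between the times, 8 of the 9 genes were lower in LOF 9 h than in LOF 6 h lungs, by 0.12 to 0.56, and Aldh1a1 was higher by 0.74 ± 0.37 (interval -0.09 to 1.57, adjusted p = 0.548). The median was -0.28, against -0.03 over all genes, of which 46.1% were above 0. By limma 0 of the 9 passed, where 0.0627% of all genes did, 0 passed at an unadjusted p of 0.05, where 10.2% did, and 1, Dhrs3, stood apart, where 17.6% did. This comparison uses the same LOF 6 h arrays as the one with control, and is no separate reading of them, but it holds no control array. Without LOF 6 h array 1, Cyp26a1 was at 0.06 in place of -0.52 and 7 of the 9 were lower, while without LOF 6 h array 2 Cyp26a1 was at -0.90 and Cyp26b1 near 0. Cyp26b1 was at -0.01 without LOF 9 h array 2, Crabp1 at -0.35 without LOF 9 h array 1 and Stra6 at -0.17 without LOF 6 h array 3, in place of -0.12, -0.56 and -0.41. Aldh1a2 and Rarb were at -0.09 and -0.10 without LOF 9 h array 1, in place of -0.20 and -0.18. In log2 from the control mean, the heart list stood at -0.37 to 0.47 in LOF 9 h lungs, against 0.58 to 1.40 in LOF 6 h lungs, the erythroid list at -0.03 to 0.03, against 0.46 to 0.76, the macrophage list at -0.08 to 0.03, against 0.19 to 0.44, and the foregut list at -0.23 to 0.09, against 0.18 to 0.86. None of these 4 lists overlapped between the times, and their part in the differences was not tested.

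By their label the GOF 9 h lungs were meant to ask the opposite question, though the Fgf10 feature did not bear the label out. No retinoic acid gene was called there either, but some intervals were wide, as for Crabp1 (-0.77 to 1.15). Means were above control for 8 of the 9, where 50.4% of all genes were, but 5 of these differences were 0.15 or less. The median was 0.08, and the lowest was -0.61 ± 0.37 for Aldh1a1. Without control array 3, 3 of the 9 were above control and the median was -0.02, and without control array 2, 7 of the 9 were above control and the median was 0.20. Without GOF 9 h array 2, 5 of the 9 were above control. By limma 0 of the 9 passed, where 0% of all genes did, 0 passed at an unadjusted p of 0.05, where 5.15% did, and 0 stood apart, where 9.42% did. The smooth muscle list, at -1.26 to -0.04 in GOF 9 h lungs, against -0.04 to 0.02 in control lungs, and the endothelial list, at -0.31 to -0.10, against -0.04 to 0.04, stood lower, the smooth muscle list only just, and their part was not tested.

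GOF 9 h against LOF 9 h sets both manipulations at the same time of doxycycline. Aldh1a1 was the 1 gene of the 9 that stood apart, lower in GOF 9 h lungs, where 17.8% of all genes stood apart, and the 1 with an unadjusted p under 0.05, where 11.9% of all genes had one. The other 8 genes differed by -0.17 to 0.25, and 5 of the 9 were above 0, where 50.2% of all genes were, but 3 of the 9 without GOF 9 h array 2 and 3 without GOF 9 h array 3. Marker lists also differed here. In log2 from the control mean, the smooth muscle list stood at -1.26 to -0.04 in GOF 9 h lungs, against 0.07 to 0.33 in LOF 9 h lungs, the endothelial list at -0.31 to -0.10, against -0.06 to 0.36, the heart list at -0.76 to -0.39, against -0.37 to 0.47, and the macrophage list at -0.14 to -0.10, against -0.08 to 0.03. The erythroid list stood higher, at 0.11 to 0.18 in GOF 9 h lungs, against -0.03 to 0.03 in LOF 9 h lungs. None of these 5 lists overlapped between the groups, and their part in the Aldh1a1 difference was not tested. By limma 0 of the 9 passed, where 0.28% of all genes did, and Etv5 was 2.42 ± 0.16 higher in GOF 9 h lungs in the same fit. That distance reflects the LOF 9 h mean of 10.30, as the Etv5 mean was 12.71 in GOF 9 h lungs and 12.66 in control lungs. Of the 7 genes chosen to check the FGF block, 5 were above control in GOF 9 h lungs and 0 were called. Sftpc was among those below, at 10.65 against 11.31.

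**Figure D3:**
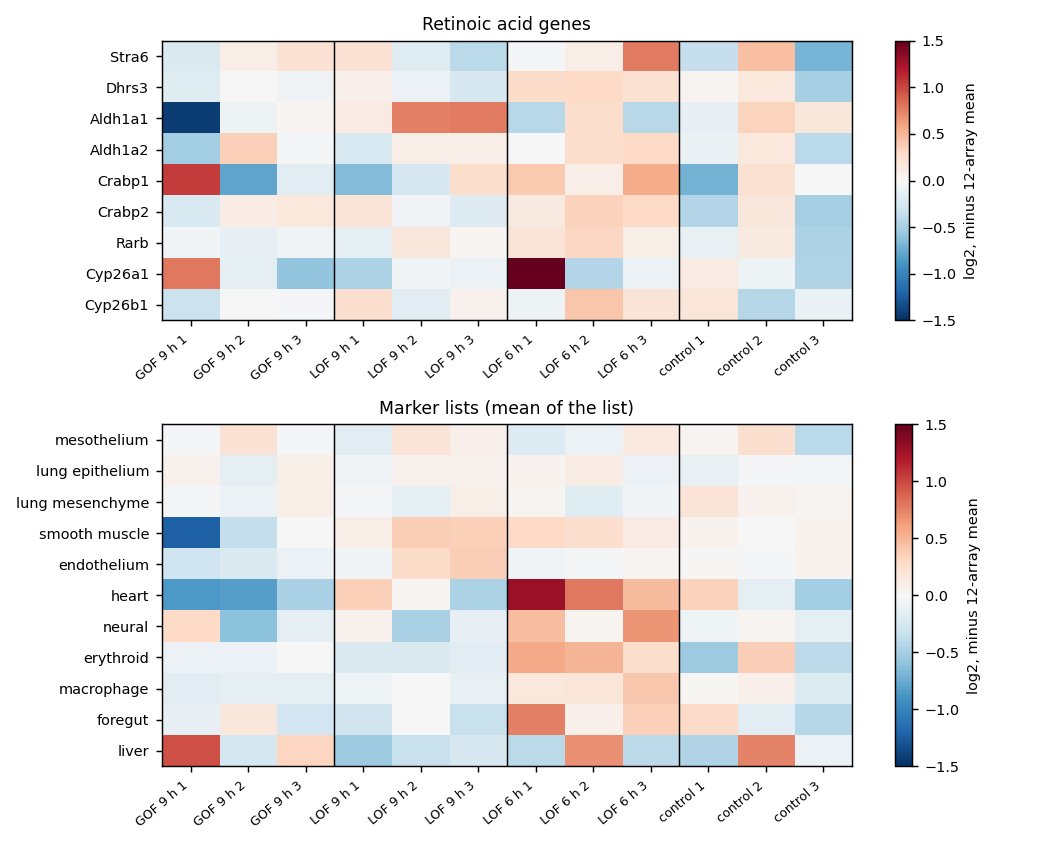
Deviation of each retinoic acid gene (upper panel) and of the mean of each marker list (lower panel) from its own mean over 12 arrays, in log2, by array from GOF 9 h to control, red above and blue below. LOF 6 h arrays are mostly red for the retinoic acid genes and for the heart, erythroid and macrophage lists, control array 3 is mostly blue, and GOF 9 h array 1 is the lowest for Aldh1a1 and for the smooth muscle list.

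The array by array view shows how much of the pattern is shared across genes. Over the 8 genes above the array median, the mean deviation from each gene's own 12-array mean was 0.06, 0.26 and 0.25 on the LOF 6 h arrays, against -0.20, 0.15 and -0.31 on the control arrays. It was -0.24, -0.05 and 0.01 on the GOF 9 h arrays and -0.02, 0.03 and 0.05 on the LOF 9 h arrays. LOF 6 h array 2 was the highest of the 12 for 4 of the 8 genes, as it was for 10.2% of all genes above the array median, and control array 2 lay among the LOF 6 h arrays in this measure.

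Another 47 genes of the same pathway were listed, of which 43 were measured, and 0 of them passed in any of the 5 comparisons. In LOF 6 h against control lungs 23 of the 43 were above 0 and 20 below, with a median of 0.02, equal to that over all genes. At an unadjusted p of 0.05, 4 of the 43 passed for LOF 6 h against control, 0 for LOF 9 h against control and 6 for GOF 9 h against control, 6 in LOF 9 h against LOF 6 h lungs and 6 in GOF 9 h against LOF 9 h lungs. Over all genes 9.36%, 7.92%, 5.15%, 10.2% and 11.9% did, in the same order of comparisons. The genes named next are those with the smallest p in these comparisons.

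Adh1, an alcohol dehydrogenase that can oxidise retinol, read 10.26, 10.88 and 10.59 in GOF 9 h lungs, 11.05, 11.41 and 11.56 in LOF 9 h lungs and 9.94, 10.55 and 10.12 in LOF 6 h lungs, against 11.45, 10.86 and 11.99 in control lungs. The LOF 6 h arrays lay below every control and every LOF 9 h array. Its difference from control was -1.23 ± 0.29 in LOF 6 h lungs (interval -1.88 to -0.58, adjusted p = 0.231) and -0.86 ± 0.29 in GOF 9 h lungs (adjusted p = 0.955), and LOF 9 h lungs were 1.13 ± 0.29 above LOF 6 h lungs (adjusted p = 0.216). Adh1 thus ran against the 8 genes with their highest mean in LOF 6 h lungs, though neither it nor they passed.

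Ret, the receptor of GDNF, whose gene depends on retinoic acid in the mouse kidney and which in the lung is known from neural crest cells, read 3.06, 3.35 and 4.16 in GOF 9 h lungs, 5.06, 4.78 and 4.58 in LOF 9 h lungs and 4.68, 5.54 and 5.66 in LOF 6 h lungs, against 4.55, 4.10 and 4.30 in control lungs. The GOF 9 h arrays lay below all LOF arrays and the LOF 6 h arrays above all controls. The difference was -1.28 ± 0.32 in GOF 9 h against LOF 9 h lungs (interval -2.00 to -0.57, adjusted p = 0.135), and 0.98 ± 0.32 in LOF 6 h against control lungs (adjusted p = 0.366). In the same unit as above, the 7 measured neural genes stood at -0.56 to 0.36 in GOF 9 h lungs, -0.43 to 0.12 in LOF 9 h lungs and 0.10 to 0.72 in LOF 6 h lungs, against -0.09 to 0.09 in control lungs, and their part in the Ret values was not tested.

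Among receptors and cofactors, Rxrg, an RXR partner of the retinoic acid receptors, was 0.56 ± 0.16 higher in LOF 6 h than in control lungs (adjusted p = 0.302), with the groups apart. Ncoa1, a coactivator of nuclear receptors, was 0.53 ± 0.16 lower in GOF 9 h than in LOF 9 h lungs (adjusted p = 0.217) and 0.43 ± 0.16 higher in LOF 9 h than in LOF 6 h lungs (adjusted p = 0.415). Of the response genes, Hoxa5, a lung mesenchyme HOX gene, was 0.63 ± 0.19 higher in GOF 9 h than in LOF 9 h lungs (adjusted p = 0.215), and Meis2, a homeobox gene induced by retinoic acid in the limb, was 0.57 ± 0.19 lower (adjusted p = 0.265). Bco1, the enzyme that splits beta-carotene into retinaldehyde, had means of 2.83 in LOF 9 h and 2.73 in LOF 6 h lungs, against 3.72 in control lungs, around the array median, and differences of -0.89 and -0.99 (adjusted p = 0.636 and 0.485). The dim genes Rbp2, Adh7 and Rdh1 and the retinol dehydrogenase gene Rdh5 completed the list of smallest p, with adjusted p between 0.294 and 0.955.

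**Figure D4:**
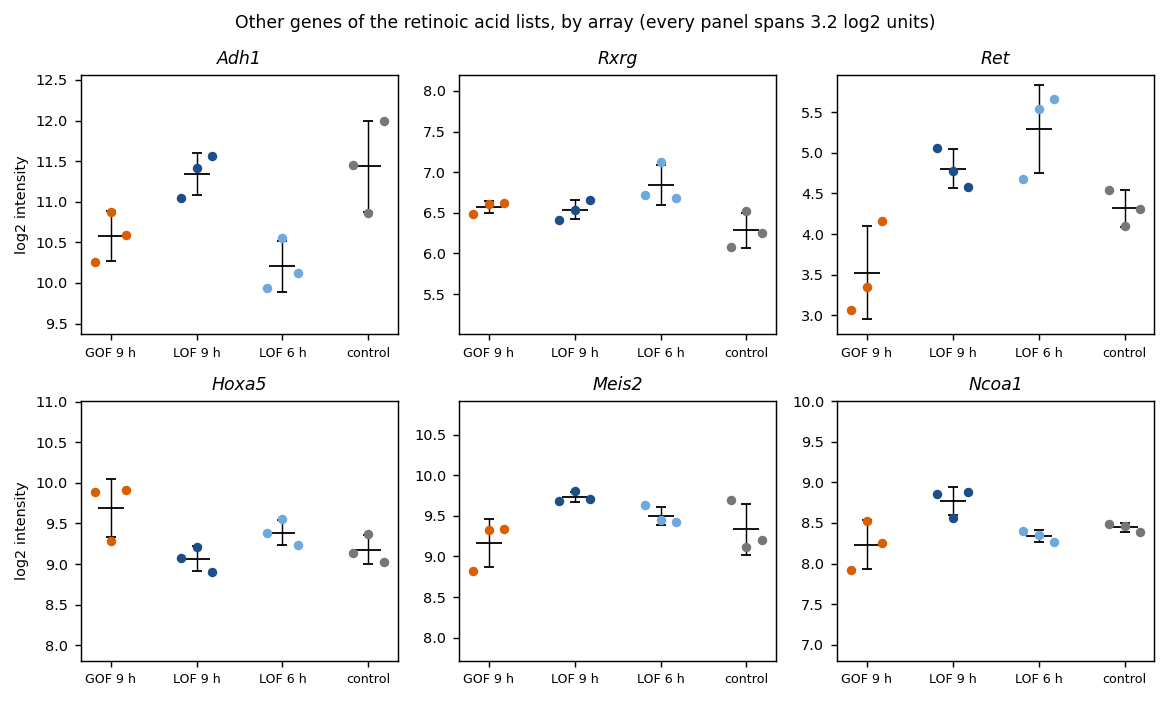
Log2 intensity by array of 6 other retinoic acid pathway genes that had among the smallest p. Points are arrays, bars are the mean and SD of 3 arrays, and groups run from GOF 9 h to control. LOF 6 h arrays are the low group of Adh1 (9.94 to 10.55), GOF 9 h arrays are the low group of Ret (3.06 to 4.16), and none of the differences passed after adjustment.

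The DR5 shown for Rarb and Cyp26a1 gave a set of genes chosen by sequence alone. Over all promoters 31 genes held one, and 11 of them were measured, 6 of these above the array median on all arrays. The set includes Rarb and Cyp26a1 themselves, beside genes such as the embryonic globin Hbb-y, which also stands on the erythroid list, and the biliverdin reductase Blvrb. By limma 0 of the 11 passed in any comparison. In LOF 6 h against control lungs 9 of the 11 were above 0, with a median of 0.35 and a span of -0.38 to 0.79, and 1 passed at an unadjusted p of 0.05, Blvrb, at 0.39 ± 0.14 (adjusted p = 0.441). Over all genes 53.5% were above 0, the median was 0.02 and 9.36% passed at that p. In LOF 9 h lungs 5 of the 11 were above control and in GOF 9 h lungs 7 of the 11, with medians of -0.02 and 0.08. The medians of 0.35 in LOF 6 h lungs and 0.08 in GOF 9 h lungs are the values of Rarb itself. Cyp26a1, which gives no usable order, is among the genes above 0 in LOF 6 h lungs. The ends of that span are Prss27 and Prokr2, with LOF 6 h means of 2.97 and 2.95, around the array median. The set is thus not independent of the retinoic acid genes described above.

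Across the 12 arrays, the levels most like those of the 3 bright genes with the widest range are given as a description, since the arrays fall into the same 4 groups and 11571 genes were compared. The pattern of Aldh1a1 was most like those of Kmt2e (r = 0.95), Nfkbia (r = 0.94) and Mfap4 (r = 0.93). For Crabp1 the closest were Zfp286, Wwp2 and Ppp2ca (r = 0.86, 0.85 and 0.85). Stra6 was closest to Smarca4, Adamts15 and Crabp2 (r = 0.90, 0.86 and 0.86), the last being the only pairing between 2 of the 9 genes among these.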

How the data were processed

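Total RNA of 12 lungs was amplified and labelled with Cy3 and measured on a 1-colour Agilent array. Per the study's methods, the authors scanned the slides, corrected spot intensity with normexp on the negative control spots, quantile-normalized the arrays and used limma, which the submitters' processing notes also name, without a version. The deposited values are log2 intensities; the base is not stated and was taken as 2 from their range of 1.44 to 15.92. No scanner files were used here. Of 62976 features, 31465 were named through the platform annotation and RefSeq and gave 20738 genes. Where a gene had several features, its brightest feature by the mean of the 12 arrays stands for it, and 10 values were missing.

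Group means of all 12 arrays were fitted with limma 3.58.1 in R 4.3.3 (lmFit and eBayes, two-sided, no filter on dim features, no covariate), with Benjamini-Hochberg adjustment over all genes in each of 5 comparisons. The steps were tested on simulated data. The arrays' number, 3 a group, sets the precision. The labels call the replicates independent, and no 2 arrays held identical values. Named are all 9 genes, the 4 other listed pathway genes with the smallest p in each comparison, a list of FGF-responsive genes, and the 3 genes most like each of the 3 bright members with the widest range. Blvrb, Hbb-y and Msln were named after their values were seen. Members and lists were chosen with earlier results of these data known. Some of the listed pathway genes are not reported here. Promoters came from RefSeq (GRCm38.p6). Alternatives were leaving out each array, a replicate block, the arrays of 1 comparison alone, trend and robust settings, array weights, a filter and a floor on dim values, cyclic loess, centring on the median, the mean of a gene's features, and every feature on its own.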

Additional observations from a re-analysis of the deposited data

How the results depend on the processing

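The count of retinoic acid genes called was 0 of 9 in each of the 5 comparisons and stayed 0 under each of the 22 alternatives, leave-one-out fits included (0 to 0). Cyp26a1 was not tested under the filter on dim features. Of 940 differences of single genes under alternatives, 525 were equal to the main value to within 1e-06, most because the alternative leaves a difference of group means as it is. Of the 415 that changed in value, 373 kept their sign, 42 took the other sign and 4 moved by more than 1 SD. The smallest adjusted p of any of the 9 genes under an alternative was 0.165, for Aldh1a1 in GOF 9 h against LOF 9 h lungs with the replicate block. The labels number the replicates 1 to 3 in each group. Deviations from the group means of arrays with the same number correlated at a median r of 0.04 over 18 pairs (-0.003 to 0.10, 3 over 0.1), against -0.03 over 36 pairs of different number, and 10 of 12 arrays correlated best with their own number. Of the 36 pairs of different number, 0 were over 0.1. The 3 pairs over 0.1 all joined arrays numbered 1. Pairs numbered 2 or 3 reached at most 0.06, within the range of pairs of different number, which reached 0.07. That is a hint from the data that arrays of the same number share something, and it rests mostly on number 1. The labels name nothing shared, so the block was kept as an alternative, and the main fit takes no account of such a pairing. With the replicate block, 0 of the 9 genes were called in each comparison.

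The counts over all genes moved more. Against 15 genes called for LOF 6 h against control, 15 for LOF 9 h against control, 0 for GOF 9 h against control, 13 in LOF 9 h against LOF 6 h lungs and 58 in GOF 9 h against LOF 9 h lungs, the alternatives gave 2 to 122, 4 to 104, 0 to 3, 0 to 161 and 13 to 500, in each case highest with trend and robust settings, and the replicate block gave 6, 11, 0, 5 and 22. The cause was not tested. Small shifts are hard to call with 3 arrays a group, as the median 95% interval of a difference over all genes reached 0.59 to either side.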
